A study of Mus musculus with 6 samples.

Results

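Of the 26486 single cells deposited from 6 libraries of mouse limb bud at E11.5 (days of embryonic development), 155 carried the authors' cluster label Keratinocytes. Membership rested on that label alone, with no further threshold. The cells were set beside the other 2 epithelial labels, which were dorso-ventral ectoderm with 328 cells and apical ectodermal ridge (AER) with 220 cells. The AER is the thickened epithelial rim that drives limb outgrowth through fibroblast growth factors.

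The study engineered 2 rearrangements at the Lbx1/Fgf8 locus of mouse chromosome 19, modelled on those found in split-hand/foot malformation, to ask what they do to chromatin contacts and gene expression in the limb. Dup was a homozygous tandem duplication on a C57BL/6 (c57bl6.J) background and was measured in hindlimb, against C57BL/6 wild-type hindlimb. Inv1 was a homozygous inversion in embryos grown from edited G4 cells, a hybrid embryonic stem cell line of 129sv and C57Bl6 origin, and was measured in hindlimb and forelimb, against G4 wild-type hindlimb and forelimb. Each group was 1 library, so intervals below cover counting error only and no difference between groups has a replicate check. The sources used here do not say whether limb buds of several embryos went into a library.

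Cells with more than 2000 detected genes, the study's own minimum, were kept. This left 145 of the 155 keratinocyte-labelled cells and 24891 cells in all. The kept members numbered 29 in Dup hindlimb, 4 in C57BL/6 wild-type hindlimb, 39 in Inv1 hindlimb, 29 in G4 wild-type hindlimb, 29 in Inv1 forelimb and 15 in G4 wild-type forelimb. Their median number of unique molecular identifiers (UMIs, each standing for 1 captured transcript) lay between 7920 and 19470, against medians of 6729 to 10102 over all cells of a library. The C57BL/6 wild-type hindlimb stood apart, since its 4 cells summed to 117460 UMIs of which a single cell held 70217. In addition, 13 of the 43 members deposited from Inv1 hindlimb and 3 of the 31 from G4 wild-type hindlimb were labelled AER in a second annotation that the authors made of hindlimb cells alone. These cells are described on their own further on. Cell barcodes found in 2 or more libraries numbered 92, and 1 keratinocyte-labelled cell carried such a barcode.

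Periderm is the outermost, flattened layer of embryonic epidermis, which covers the basal layer before stratification and is shed before birth. It is known for simple-epithelium keratins, for tight junctions at its outer face and for keeping neighbouring epithelia from sticking to each other, under the control of factors such as the grainyhead-like protein Grhl3. Basal cells beneath it carry Krt5 and Krt14 and depend on the transcription factor Trp63.

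The label was described with 6 periderm markers, namely Krt4, Krt17, Krt19, Grhl3, Cldn4 and Sfn. The authors' label itself names no markers. Of the 6 markers 5 had a row in the count tables, Krt4 being the exception. In the mm9 assembly (NCBIM37) Krt17, a keratin of periderm and of appendages, lies at chr11:100117531-100122343 on the minus strand, and Krt19, a simple-epithelium keratin, lies in the same keratin cluster at chr11:100002124-100009979, also on the minus strand. Grhl3 lies at chr4:135097803-135129545 and Sfn at chr4:133156471-133158083, both on the minus strand. Cldn4 lies at chr5:135420996-135422804 on the minus strand, with a gap of 39.3 kb to Cldn3 at chr5:135462084-135463342 on the plus strand.

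To show the DNA next to these genes, the 250 bases before the annotated start of 2 markers are printed 5′ to 3′ from RefSeq (GRCm38.p6, minus strand of both genes). A pair of motifs was searched on both strands, AACNNGTT for grainyhead-like proteins and TGANTCA for AP-1, and capitals mark their matches. The Sfn sequence covers chr4:133602169-133602418 and holds 1 grainyhead-like match, AACTGGTT, 184 to 177 bases before the start. The Cldn4 sequence covers chr5:134946935-134947184 and holds 2 AP-1 matches, 240 to 234 and 158 to 152 bases before the start.
Sfn: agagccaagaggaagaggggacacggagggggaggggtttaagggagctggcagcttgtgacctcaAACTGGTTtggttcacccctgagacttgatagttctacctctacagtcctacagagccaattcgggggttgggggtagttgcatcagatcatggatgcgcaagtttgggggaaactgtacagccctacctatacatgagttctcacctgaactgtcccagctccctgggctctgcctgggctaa
Cldn4: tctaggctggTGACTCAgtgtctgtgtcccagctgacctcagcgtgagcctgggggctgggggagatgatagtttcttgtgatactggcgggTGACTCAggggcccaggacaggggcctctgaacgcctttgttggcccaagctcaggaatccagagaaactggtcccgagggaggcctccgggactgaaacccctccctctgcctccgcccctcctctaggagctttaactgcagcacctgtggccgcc
Among 32851 promoters of this length, 3.64% held the first motif and 6.75% the second. Of the 6 markers, 3 were in the promoter table (Sfn, Cldn4 and Grhl3), and the Grhl3 sequence held neither motif. Of the 20 genes highest in keratinocyte-labelled cells, most of which are named below, 15 were in the table, 1 held the first motif (Sfn) and 0 held the second. The matches are letters in a sequence and were not measured as binding sites.

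The label was first checked cell by cell against these markers. Of the 145 keratinocyte-labelled cells, 126 (86.9%) held UMIs of 3 or more of the 5 measured markers, 47 held all 5, and none lacked all of them. Of dorso-ventral ectoderm cells 24 of 301 (7.97%) reached 3 markers, and of AER cells 1 of 205 (0.488%) did. Sfn UMIs were present in 100% of keratinocyte-labelled cells, against 80.1% of dorso-ventral ectoderm cells, 54.1% of AER cells and 1.52% of mesenchymal cells. The median depths were 10228, 10003, 7455 and 8364 UMIs in the same order of labels, and mesenchyme served as the cell type that should lack epithelial genes. After each cell was thinned to 4000 UMIs, which left out 1 keratinocyte-labelled cell as too shallow, the Sfn shares were 100%, 52.2%, 35.6% and 0.750%.

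Grhl3 separated the labels more sharply, with UMIs in 66.9% of keratinocyte-labelled cells, against 0.997% of dorso-ventral ectoderm cells, 0.488% of AER cells and 0.207% of mesenchymal cells. At 4000 UMIs per cell its shares were 38.9% under the keratinocyte label, 0.664% in dorso-ventral ectoderm and 0.0838% in mesenchyme. Krt17 UMIs were in 67.6% of keratinocyte-labelled cells (51.4% thinned), 16.6% of dorso-ventral ectoderm cells (4.98% thinned) and 1.19% of mesenchymal cells (0.587% thinned). The labels were made by clustering these same transcripts, so the marker levels describe the clusters and carry no test.

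Levels were compared as CPM (UMIs scaled to the same total in each library and label), after the UMIs of a label were summed within a library. Sfn, the 14-3-3 protein sigma of epithelia, had 3120 CPM in Dup hindlimb, 860 CPM in C57BL/6 wild-type hindlimb, 2667 CPM in Inv1 hindlimb, 2418 CPM in G4 wild-type hindlimb, 2974 CPM in Inv1 forelimb and 2585 CPM in G4 wild-type forelimb among keratinocyte-labelled cells. In dorso-ventral ectoderm Sfn had 124 to 237 CPM and in AER 66.1 to 192 CPM. The other 5 libraries lay close together for Sfn, with the 4 cells of C57BL/6 wild-type hindlimb below them, and no library of the keratinocyte label overlapped with the other labels.

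Grhl3 had 208 CPM in Dup hindlimb, 68.1 CPM in C57BL/6 wild-type hindlimb, 83.8 CPM in Inv1 hindlimb, 83.4 CPM in G4 wild-type hindlimb, 121 CPM in Inv1 forelimb and 147 CPM in G4 wild-type forelimb under the keratinocyte label, against 0 to 3.76 CPM in dorso-ventral ectoderm. Cldn4, a tight junction claudin, had 136 to 290 CPM over the 6 libraries, against 18.8 to 35.2 CPM in dorso-ventral ectoderm. Krt19 had 102 to 205 CPM, against 5.27 to 29.5 CPM. Neither of the last 2 genes had libraries that overlapped between the keratinocyte label and dorso-ventral ectoderm.

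Krt17 was the most uneven marker. Under the keratinocyte label it had 1286 CPM in Dup hindlimb, 102 CPM in C57BL/6 wild-type hindlimb, 1751 CPM in Inv1 hindlimb, 271 CPM in G4 wild-type hindlimb, 3805 CPM in Inv1 forelimb and 2451 CPM in G4 wild-type forelimb. In dorso-ventral ectoderm Krt17 had 0 to 45.1 CPM and in AER 0 to 7.75 CPM. Both forelimb libraries were above all 4 hindlimb libraries and each mutant was above its wild type, while the lowest keratinocyte-labelled library was still above every library of the other labels. Krt17 and Krt14 are close paralogues, and the sources used here do not say how reads that fit both were counted, so the split between them is uncertain.

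**Figure D1:**
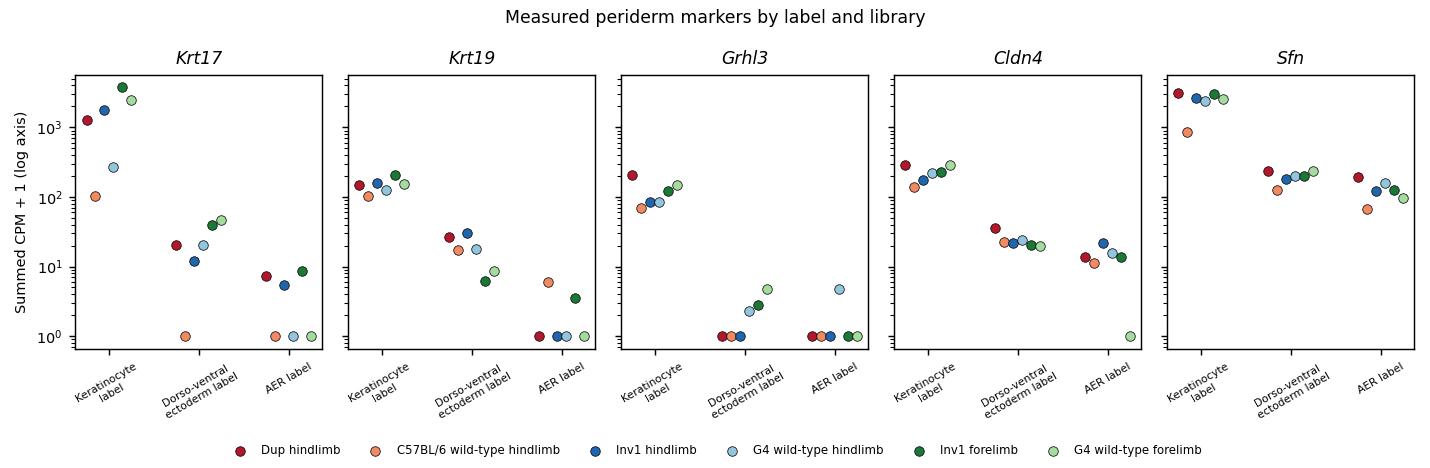
Summed level of the 5 measured periderm markers (CPM + 1, log axis) by label, with 1 point per library coloured by genotype and limb. For each gene the 6 keratinocyte-labelled points lie above the points of dorso-ventral ectoderm and AER, with Krt17 spread from 102 to 3805 CPM.

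Keratinocyte-labelled cells were rare in every library. They made up 0.624% of cells in Dup hindlimb (95% exact Clopper-Pearson interval 0.418% to 0.895%) and 0.178% in C57BL/6 wild-type hindlimb (0.0485% to 0.455%). In Inv1 hindlimb they made up 0.656% (0.467% to 0.895%) and in G4 wild-type hindlimb 0.517% (0.347% to 0.742%). In Inv1 forelimb they made up 0.789% (0.529% to 1.13%) and in G4 wild-type forelimb 0.542% (0.304% to 0.893%). Intervals of the libraries overlapped with each other, except that the C57BL/6 wild-type interval lay below those of Inv1 hindlimb and Inv1 forelimb.

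The ratio of the share in the mutant to that in its wild type was 3.51 for Dup hindlimb (95% exact interval 1.23 to 13.7), 1.27 for Inv1 hindlimb (0.764 to 2.13) and 1.46 for Inv1 forelimb (0.755 to 2.92). The first of these rested on 4 wild-type cells, and the share of dorso-ventral ectoderm cells was likewise higher in Dup, by 2.73 times (1.42 to 5.74). Among cells with any of the 3 epithelial labels the ratios were 1.94 (0.680 to 7.59), 0.784 (0.473 to 1.32) and 0.838 (0.435 to 1.68) in the same order of pairs. All 3 of these intervals included 1, so no difference in the keratinocyte-labelled share of the epithelium was detectable at these cell numbers. The AER share of the epithelium was lower in Dup hindlimb, at 21.6% against 51.6% in C57BL/6 wild-type hindlimb, for a ratio of 0.418 (0.214 to 0.837). How much epithelium was carried into each dissected and trypsin-treated library was not measured, and it cannot be told apart from the genotype with 1 library per group.

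**Figure D2:**
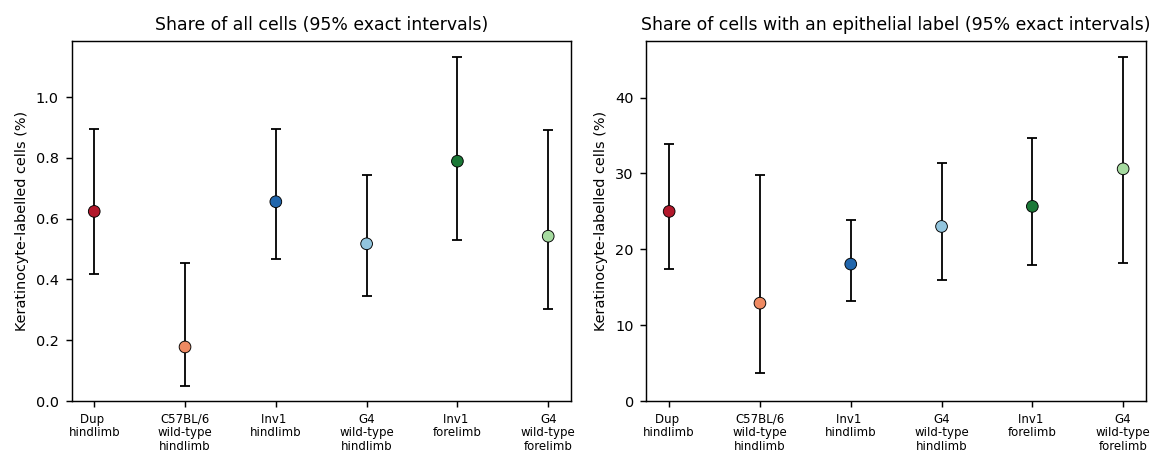
Keratinocyte-labelled cells as a percentage of all cells (left) and of cells with an epithelial label (right) in each library, with 95% Clopper-Pearson intervals as bars. The C57BL/6 wild-type hindlimb, with 4 cells, has the lowest share of all cells at 0.178%, and the shares of epithelial cells run from 12.9% to 30.6%.

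To describe the whole expression profile, each gene's summed CPM under the keratinocyte label was set against dorso-ventral ectoderm within the 5 libraries that held at least 5 cells of both labels, which left out C57BL/6 wild-type hindlimb. Ratios below are log2 values with a pseudocount of 50 CPM added to both sides, which understates the difference of low genes, and are medians over the 5 libraries. Among 2937 genes with a mean of 50 CPM or more, 84 (2.86%) were at least 2-fold higher in all 5 libraries and 14 (0.477%) were at least 2-fold lower in all 5. For 480 genes (16.3%) the ranges of the labels over libraries did not overlap, in either direction, and the median log2 ratio of all 2937 genes was -0.03. These counts describe how the clusters differ. A gene that reached 50 CPM only through the label where it is high had to differ, so counts of list members below are given as descriptions beside these percentages.

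The keratins of simple epithelia led the profile. The list of periderm and simple keratins held 9 genes, 5 were measured, all 5 of those passed 50 CPM and were among the 84 higher genes, and their median log2 ratio was 2.40. Krt17 had the highest ratio of any gene, 4.72, with a range over libraries of 2.21 to 5.44. Krt8, the type II keratin of simple epithelia, had 940, 456, 801, 528 and 652 CPM in Dup hindlimb, Inv1 hindlimb, G4 wild-type hindlimb, Inv1 forelimb and G4 wild-type forelimb, against 3.51 to 34.8 CPM in dorso-ventral ectoderm, for a log2 ratio of 3.43. Its partner Krt18 had 203 to 649 CPM, against 19.3 to 133 CPM in dorso-ventral ectoderm, for a log2 ratio of 1.82. Krt7 had 259 to 605 CPM, against 32.2 to 63.2 CPM (log2 ratio 2.40), and Krt19 had a log2 ratio of 1.40. In Krt8, Krt18 and Krt7 no library of one label overlapped with the other label.

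Genes of the basal layer did not move as one group. Of 15 basal epidermal genes 14 were measured, 6 passed 50 CPM, 2 were higher and none was lower by the 2-fold rule, and the median log2 ratio was -0.74. The 2 higher genes were the keratins themselves. Krt14 had 4398 CPM in Dup hindlimb, 2679 CPM in Inv1 hindlimb, 2120 CPM in G4 wild-type hindlimb, 4876 CPM in Inv1 forelimb and 3442 CPM in G4 wild-type forelimb, against 331 to 956 CPM in dorso-ventral ectoderm (log2 ratio 2.51). Krt5, which pairs with Krt14, had 1045 to 1913 CPM, against 223 to 423 CPM (log2 ratio 2.05). Every keratinocyte-labelled library was above every dorso-ventral ectoderm library for both keratins.

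The other basal genes lay on the opposite side. Trp63, the master regulator of stratified epithelia, had 7.70 CPM in Dup hindlimb, 23.5 CPM in Inv1 hindlimb, 20.8 CPM in G4 wild-type hindlimb, 38.8 CPM in Inv1 forelimb and 24.5 CPM in G4 wild-type forelimb under the keratinocyte label, against 91.5 to 222 CPM in dorso-ventral ectoderm. Its log2 ratio was -1.40, with a range of -1.87 to -0.998, so that 1 library stopped just short of the 2-fold rule. Trp63 UMIs were in 21.4% of keratinocyte-labelled cells (9.72% thinned), against 71.8% of dorso-ventral ectoderm cells (37.9% thinned), with 0.176% of mesenchymal cells (0.0750% thinned) as background. Cdh3, the P-cadherin of basal cells, had 26.8 to 57.1 CPM, against 117 to 165 CPM (log2 ratio -1.01). Col17a1, a hemidesmosome collagen, was at 0 CPM in all 5 libraries under the keratinocyte label and at 23.2 to 150 CPM in dorso-ventral ectoderm, and the laminin receptor subunit Itga3 had 0 to 11.9 CPM, against 33.4 to 63.9 CPM. Cells with UMIs of 3 or more of 6 basal markers were 56 of 145 (38.6%) under the keratinocyte label and 243 of 301 (80.7%) in dorso-ventral ectoderm.

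Of 14 periderm regulators 13 were measured and 5 passed 50 CPM, among them Grhl3, Sfn, Arhgap29 and Gabrp. All 5 were higher in the 5 libraries, with a median log2 ratio of 1.83. Arhgap29, a GTPase-activating protein, had 360 to 661 CPM, against 67.0 to 113 CPM in dorso-ventral ectoderm. Gabrp, the pi subunit of the GABA-A receptor, was close to a yes or no gene, with 256 to 640 CPM under the keratinocyte label, against 0 to 0.984 CPM in dorso-ventral ectoderm. Gabrp UMIs were in 84.8% of keratinocyte-labelled cells (66.7% thinned), in 1 of 301 dorso-ventral ectoderm cells (0.332%, and 0% thinned) and in 0.105% of mesenchymal cells (0.0529% thinned). None of 205 AER cells held one, which allows a share of up to 1.78% by the exact interval. Grhl2, a second grainyhead-like gene, showed no such gap, with 23.8 to 44.9 CPM against 40.0 to 78.9 CPM in dorso-ventral ectoderm. Gm16136, whose annotated start overlaps that of Grhl2 by 274 bases on the other strand of chromosome 15, had 491 to 636 CPM against 26.3 to 58.0 CPM (log2 ratio 2.87), and the sources used here do not say whether the counting used strand.

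Claudins led the junction genes. Of 18 tight junction genes, all measured, 7 passed 50 CPM and 5 were higher, all of them claudins, and the median log2 ratio was 1.67. Cldn3 had 489 CPM in Dup hindlimb, 422 CPM in Inv1 hindlimb, 542 CPM in G4 wild-type hindlimb, 418 CPM in Inv1 forelimb and 400 CPM in G4 wild-type forelimb, against 0 to 6.45 CPM in dorso-ventral ectoderm (log2 ratio 3.23). Cldn7 had 424 to 716 CPM against 47.4 to 121 CPM (log2 ratio 2.21), Cldn6 had a log2 ratio of 1.67 and Cldn4 of 1.98. Cldn23 had 80.9 to 192 CPM, against 0 to 1.76 CPM. The cytoplasmic scaffold Tjp1, also called ZO-1, had 74.4 to 103 CPM against 45.0 to 86.5 CPM (log2 ratio 0.35), so that its libraries overlapped while those of the claudins did not.

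Of 12 desmosome genes 9 were measured, 6 passed 50 CPM and 5 were higher, with a median log2 ratio of 1.51. Desmoplakin (Dsp), which ties desmosomes to keratin filaments, had 250 to 489 CPM against 36.4 to 90.2 CPM in dorso-ventral ectoderm (log2 ratio 1.89). Plakoglobin (Jup) had 208 to 343 CPM against 19.6 to 38.6 CPM (log2 ratio 2.03). The desmosomal cadherins Dsg2 and Dsc2 had log2 ratios of 1.51 each, and Perp, a membrane protein of desmosomes, had 1.34. For all of these the labels did not overlap over libraries.

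Among 15 epithelial identity genes, all measured, 8 passed 50 CPM and 3 were higher, with a median log2 ratio of 1.23. Spint1, an inhibitor of membrane serine proteases, had 231 to 277 CPM against 18.8 to 29.5 CPM in dorso-ventral ectoderm (log2 ratio 2.05). Rab25, an epithelial Rab GTPase, had a log2 ratio of 1.95. Epcam, an adhesion molecule of epithelia, marked all epithelial labels, with 1032 to 1563 CPM under the keratinocyte label and 720 to 914 CPM in dorso-ventral ectoderm (log2 ratio 0.49), and 702 to 2178 CPM in AER.

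Of 11 Notch genes, all measured, 4 passed 50 CPM, 3 were higher and the median log2 ratio was 2.03. The receptor Notch1 had 208 CPM in Dup hindlimb, 241 CPM in Inv1 hindlimb, 298 CPM in G4 wild-type hindlimb, 427 CPM in Inv1 forelimb and 526 CPM in G4 wild-type forelimb, against 1.96 to 26.3 CPM in dorso-ventral ectoderm (log2 ratio 2.66). The ligand Jag1 had 116 to 149 CPM, against 7.82 to 41.4 CPM (log2 ratio 1.41). Nrarp, a target and feedback inhibitor of Notch, had 374 to 636 CPM, against 8.78 to 15.0 CPM (log2 ratio 3.33). The target Hes1 had 135 to 462 CPM against 106 to 168 CPM (log2 ratio 0.82, range 0.25 to 1.42) and did not reach the 2-fold rule, and its libraries overlapped. The ligand Jag2, which was listed with the AER genes, ran the other way at 0 to 7.70 CPM, against 41.1 to 150 CPM in dorso-ventral ectoderm.

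In the list of 14 actin and membrane genes, all measured, 10 passed 50 CPM, 4 were higher and the median log2 ratio was 1.18. Anxa1, a calcium-dependent membrane-binding protein, had 182 to 543 CPM against 0 to 3.94 CPM in dorso-ventral ectoderm, for a log2 ratio of 2.83. Ezr (ezrin), which links the membrane to actin in microvilli and microridges, had 253 to 489 CPM against 65.0 to 109 CPM (log2 ratio 1.23). S100a10 and S100a11, small calcium-binding proteins, had log2 ratios of 1.54 and 1.45. Cornification, the late programme of the outer skin barrier, had summed levels of 119 to 567 CPM under the keratinocyte label and 45.1 to 84.6 CPM in dorso-ventral ectoderm over the 6 libraries. Of its 17 genes 8 were measured and 1 passed 50 CPM, which was the plakin Ppl with 158 to 323 CPM against 0 to 5.87 CPM (log2 ratio 2.30).

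No proliferation gene was called. All 12 G2/M genes and all 12 S phase genes passed 50 CPM, and the median log2 ratios were -0.14 and -0.20. Mki67, a marker of cycling cells, had 154 CPM in Dup hindlimb, 146 CPM in Inv1 hindlimb, 155 CPM in G4 wild-type hindlimb, 86.2 CPM in Inv1 forelimb and 188 CPM in G4 wild-type forelimb, against 84.3 to 237 CPM in dorso-ventral ectoderm, and the labels overlapped. Of 11 cell cycle inhibitors and p53 targets, all measured, 3 passed 50 CPM and none was called (median log2 ratio -0.37). Cdkn2b, the inhibitor p15, was too low for that filter but had 84.7, 58.6, 32.8, 119 and 20.4 CPM in the same 5 libraries, against 3.91 CPM in Dup hindlimb and 0 CPM in the other 4 for dorso-ventral ectoderm. Of 14 dissociation stress genes, which respond to enzyme treatment of tissue, 7 passed 50 CPM and none was called (median log2 ratio 0.67). The immediate early gene Fos had 48.9 to 258 CPM against 6.89 to 109 CPM, and its range of log2 ratios over libraries was -0.68 to 1.43.

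Further genes among the 20 highest belonged to none of these lists. Slc2a3, the glucose transporter GLUT3, had 1587 CPM in Dup hindlimb, 1518 CPM in Inv1 hindlimb, 1230 CPM in G4 wild-type hindlimb, 2073 CPM in Inv1 forelimb and 2141 CPM in G4 wild-type forelimb, against 93.9 to 259 CPM in dorso-ventral ectoderm (log2 ratio 2.82). The tetraspanin Cd9 had a log2 ratio of 2.91, the metallothionein Mt1 of 2.67 and the actin-binding protein Nebl of 3.10. Pvrl4, the adhesion protein nectin-4, had 204 to 364 CPM against 0 to 5.87 CPM (log2 ratio 2.66). Rhov, an atypical small GTPase, had 223 to 298 CPM against 0 to 1.97 CPM (log2 ratio 2.59), and Tnfaip2 had 152 to 274 CPM against 0 to 3.94 CPM (log2 ratio 2.46). Acta2, smooth muscle actin, was the least even of the 20 after Krt17, with 404 CPM in Dup hindlimb, 80.4 CPM in Inv1 hindlimb, 86.4 CPM in G4 wild-type hindlimb, 541 CPM in Inv1 forelimb and 302 CPM in G4 wild-type forelimb, against 0 to 6.89 CPM in dorso-ventral ectoderm (log2 ratio 2.71, range 1.20 to 3.51).

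**Figure D3:**
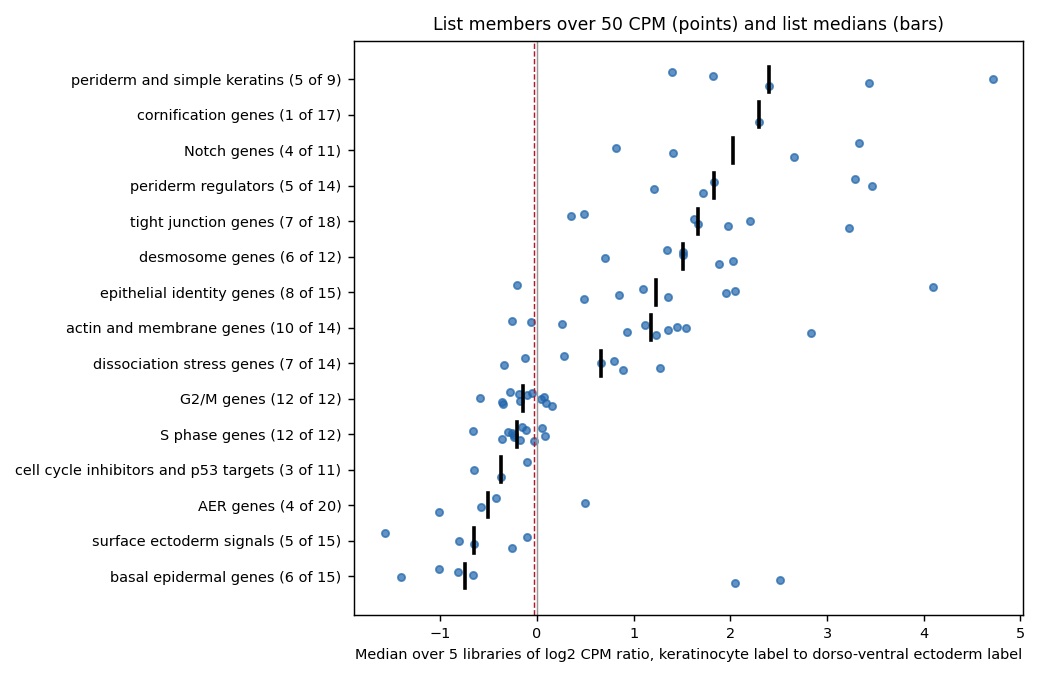
Median over 5 libraries of the log2 CPM ratio of the keratinocyte label to the dorso-ventral ectoderm label, with 1 point per list member over 50 CPM, a black bar for each list's median and a dashed line at -0.03, the median of all 2937 genes. Lists of simple keratins, cornification (1 gene), Notch and periderm regulator genes lie to the right of 0, and the basal and surface ectoderm lists have medians of -0.74 and -0.65.

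The 14 genes lower under the keratinocyte label were led by the chemokine Cxcl14. Cxcl14 had 50.1 CPM in Dup hindlimb, 48.6 CPM in Inv1 hindlimb, 289 CPM in G4 wild-type hindlimb, 69.0 CPM in Inv1 forelimb and 53.01 CPM in G4 wild-type forelimb, against 1558 to 2704 CPM in dorso-ventral ectoderm (log2 ratio -4.42, range -4.55 to -2.25). Its UMIs were in 41.4% of keratinocyte-labelled cells (22.2% thinned), against 99.0% of dorso-ventral ectoderm cells (94.0% thinned). In mesenchyme they were in 35.5% of cells (23.2% thinned), so the keratinocyte share was near the mesenchymal share. Pdgfa, a growth factor that epithelium sends to the mesenchyme, had 48.9 to 113 CPM against 519 to 728 CPM (log2 ratio -2.45). Bhlha9, a basic helix-loop-helix protein with a role in limb development, had 4.08 to 80.4 CPM against 107 to 433 CPM (log2 ratio -2.03). In both Cxcl14 and Bhlha9 G4 wild-type hindlimb was the highest keratinocyte-labelled library of the 5.

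The others were lower by less. Lgals7, galectin-7, had 5.96 to 19.3 CPM against 143 to 282 CPM (log2 ratio -2.00). Sostdc1, an inhibitor of BMP and Wnt signals, had 0 to 4.08 CPM against 51.6 to 174 CPM (log2 ratio -1.83). The insulin-like growth factor binding proteins Igfbp4 and Igfbp5 had log2 ratios of -1.70 and -1.58, the ferritin heavy chain Fth1 of -1.66, the apolipoprotein Apoe of -1.64 and the matrix link protein Hapln1 of -1.63. The remaining 4 were Tiparp, Lbh, Tln2 and Ube2e3, with log2 ratios of -1.42, -1.38, -1.30 and -1.26. Igfbp5 was the 1 gene of the 15 surface ectoderm signals that was called, with 13 measured, 5 over 50 CPM and a median log2 ratio of -0.65. Wnt6, a ligand of the surface ectoderm, had 135 to 379 CPM against 383 to 558 CPM (log2 ratio -0.65).

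Against the AER label, 2994 genes passed 50 CPM in the same 5 libraries, 86 (2.87%) were higher and 83 (2.77%) were lower under the keratinocyte label. The 2 sets of higher genes had 68 in common, which is 81.0% of the 84 higher than in dorso-ventral ectoderm and 79.1% of the 86 higher than in AER, and both sets share the same keratinocyte-labelled cells. Krt14 had the highest ratio to AER, 5.57, with 3.72 to 27.5 CPM in AER. Of 20 AER genes, all measured, 14 passed 50 CPM, 10 were lower and none was higher (median log2 ratio -1.93), while against dorso-ventral ectoderm 4 passed and none was called. Bmp4, a signal of the ridge, had 7.70 to 46.9 CPM against 448 to 771 CPM in AER (log2 ratio -3.11). Rspo2, which boosts Wnt signals, had 0 to 6.70 CPM against 345 to 459 CPM (log2 ratio -3.03), and the transcription factor Sp8 had 0 to 43.1 CPM against 185 to 316 CPM (log2 ratio -1.89).

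Markers of other cell types were summed in the same way to see what else the label could hold. The 15 mesenchyme markers, all measured, summed to 1283 to 2358 CPM under the keratinocyte label, 583 to 1263 CPM in dorso-ventral ectoderm and 2527 to 3489 CPM in mesenchyme. In every library but C57BL/6 wild-type hindlimb, which had the highest sum, most of it was the intermediate filament vimentin (Vim). Vim had 863 CPM in Dup hindlimb, 647 CPM in C57BL/6 wild-type hindlimb, 879 CPM in Inv1 hindlimb, 1158 CPM in G4 wild-type hindlimb, 817 CPM in Inv1 forelimb and 983 CPM in G4 wild-type forelimb, against 202 to 324 CPM in dorso-ventral ectoderm and 336 to 530 CPM in mesenchyme itself. Prrx1, the defining factor of limb mesenchyme, had 46.2 CPM in Dup hindlimb, 315 CPM in C57BL/6 wild-type hindlimb, 6.70 CPM in Inv1 hindlimb, 5.96 CPM in G4 wild-type hindlimb, 2.15 CPM in Inv1 forelimb and 57.1 CPM in G4 wild-type forelimb, against 419 to 680 CPM in mesenchyme. Vim was thus above its mesenchymal level in every library, while Prrx1 was highest in C57BL/6 wild-type hindlimb and below its mesenchymal level in every library.

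Cells with UMIs of 3 or more of 6 mesenchyme markers numbered 7 of 145, of which 2 were in Dup hindlimb, 3 of the 4 in C57BL/6 wild-type hindlimb and 2 in G4 wild-type forelimb. Values of the C57BL/6 wild-type library therefore rest mostly on cells that also held mesenchymal transcripts, and their part in its low epithelial levels was not tested. The comparison was repeated without cells of either label that held 3 or more mesenchyme markers, again leaving out C57BL/6 wild-type hindlimb. This removed dorso-ventral ectoderm cells as well as keratinocyte-labelled cells. It gave 87 genes higher and 16 lower than in dorso-ventral ectoderm, 82 and 13 of them shared with the full set. The mesothelium list summed to 68.1 to 379 CPM, all of it from Upk1b, a uroplakin that is also known in other surface epithelia, while the mesothelial factor Wt1 was at 0 CPM in each of the 6 libraries. Endothelial markers summed to 8.38 to 42.6 CPM, immune markers to 0 to 34.1 CPM, muscle markers to 15.1 to 128 CPM and Merkel cell markers to 0 to 25.5 CPM. The neural crest list summed to 17.0 to 112 CPM, of which the receptor Erbb3 made up 17.0 to 110 CPM, against 15.6 to 45.1 CPM in dorso-ventral ectoderm. The defining genes Sox10 of neural crest, Cdh5 of endothelium, Ptprc of immune cells and Ttr of yolk sac endoderm were at 0 UMIs in all 6 libraries. Neuron markers summed to 0 to 85.1 CPM and yolk sac endoderm markers to 0 to 2.15 CPM. Haemoglobin and other erythroid transcripts summed to 487 to 6070 CPM under the keratinocyte label and to 751 to 3909 CPM in mesenchyme, with the C57BL/6 wild-type library highest under the keratinocyte label.

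The keratinocyte-labelled cells differed among themselves most in Krt17. In Inv1 forelimb 25 of 29 cells held Krt17 UMIs and the median cell had 1943 CPM, and in G4 wild-type forelimb 12 of 15 cells did and the median was 435 CPM. In Inv1 hindlimb 26 of 39 cells held Krt17 with a median of 165 CPM, whereas in G4 wild-type hindlimb 12 of 29 cells did and the median was 0 CPM. In Dup hindlimb 19 of 29 cells held it with a median of 194 CPM, and single cells reached 15819 CPM. Leaving aside the 4 cells of C57BL/6 wild-type hindlimb, all of which held Krt17, a larger part of the cells lacked it in hindlimb than in forelimb. In Inv1 hindlimb 25 of the 28 cells that kept the label in the second annotation held Krt17, and 1 of the 11 relabelled AER did. In G4 wild-type hindlimb 12 of the 26 cells that kept the label held it. Without the relabelled cells the share of Inv1 cells that held Krt17 was therefore no lower in hindlimb than in forelimb. Its summed level was still lower, at 2067 CPM in the 28 hindlimb cells against 3805 CPM in Inv1 forelimb. Forelimb cells had no second annotation.

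A few cells carried a large part of the Krt17 signal. The tenth of cells with the most Krt17 UMIs held 63.2% of them in Dup hindlimb, 64.5% in Inv1 hindlimb, 84.6% in G4 wild-type hindlimb, 47.5% in Inv1 forelimb and 66.6% in G4 wild-type forelimb. For Sfn the same figure was 24.8% to 33.9% in these libraries, and every cell of every library held Sfn. In C57BL/6 wild-type hindlimb 1 of the 4 cells held 58.3% of Krt17 UMIs, and 1 held 40.6% of Sfn UMIs. The median Sfn level per cell was 2693 CPM in Dup hindlimb, 2473 CPM in Inv1 hindlimb, 2057 CPM in G4 wild-type hindlimb, 2738 CPM in Inv1 forelimb and 2718 CPM in G4 wild-type forelimb. The libraries were thus closer to each other in Sfn than in Krt17. Krt14 was absent from 9 of 29 cells in G4 wild-type hindlimb, 5 of 39 in Inv1 hindlimb and 3 of 15 in G4 wild-type forelimb. It was also absent from 2 of 29 cells in Inv1 forelimb and 1 of 29 in Dup hindlimb. Krt5 was absent from 1 cell of the 145. All 28 Inv1 hindlimb cells that kept the label in the second annotation held both Krt14 and Krt5. In G4 wild-type hindlimb 20 of the 26 cells that kept the label held Krt14.

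**Figure D4:**
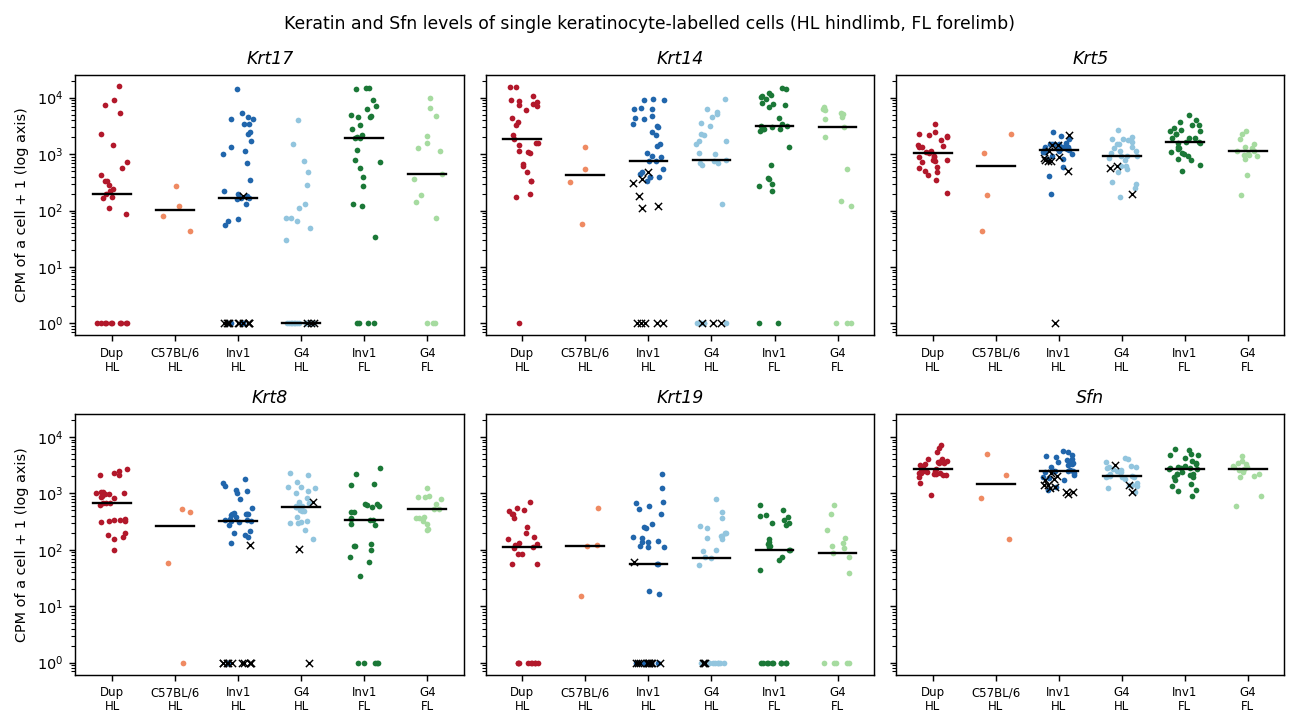
Level of 5 keratins and Sfn in each keratinocyte-labelled cell (CPM + 1, log axis) by library, with black lines at the medians and crosses for cells that the second annotation labelled AER. Krt17 runs over the whole axis with many cells at 0, whereas Sfn is present in all 145 cells.

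The authors' second annotation of hindlimb cells split the Inv1 and G4 members. With the minimum of 2000 genes, 28 of the Inv1 hindlimb cells kept the keratinocyte label and 11 became AER, and 26 of the G4 wild-type hindlimb cells kept it and 3 became AER. No cell that the second annotation called keratinocyte had another label in the first. Of the cells labelled keratinocyte in both annotations, all 28 in Inv1 hindlimb and 20 of 26 in G4 wild-type hindlimb held 3 or more of the 5 periderm markers, against 3 of 11 and 1 of 3 among the relabelled cells. Median depth was 7967 UMIs in the 11 relabelled Inv1 cells and 12090 UMIs in the 28 others.

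The 11 relabelled Inv1 cells carried transcripts of both classes. Sfn had 1535 CPM in them, 2873 CPM in the 28 cells that kept the label and 119 CPM in cells labelled AER in both annotations. Krt5 had 1012, 1174 and 158 CPM in the same order, so that both genes lay on the keratinocyte side. Krt17 had 10.9, 2067 and 4.52 CPM, Krt8 had 10.9, 537 and 7.53 CPM and Krt14 had 152, 3138 and 7.53 CPM, so that Krt17 and Krt8 were near the AER level and Krt14 lay between the classes. Bmp4 had 229, 13.9 and 771 CPM and Sp8 had 196, 9.90 and 265 CPM, and these lay between the classes or near AER. Dlx5 had 98.0, 13.9 and 199 CPM and En1 had 54.4, 0 and 99.3 CPM, also between the classes. Rspo2 had 32.7, 1.98 and 459 CPM, between the classes on 3 UMIs in the relabelled cells. Msx2 had 21.8, 65.3 and 235 CPM and Sp6 had 10.9, 29.7 and 101 CPM, on 2 UMIs and 1 UMI in the relabelled cells. Exact Poisson intervals in the relabelled cells were 2.64 to 78.7 CPM for Msx2 and 0.276 to 60.7 CPM for Sp6. These intervals included the levels of the cells that kept the label and lay below the AER levels. Trp63 had 87.1 CPM in the relabelled cells, 11.9 CPM in the cells that kept the label and 218 CPM in AER.

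The 3 relabelled G4 wild-type hindlimb cells held 50 UMIs of Fgf8, the defining growth factor of the AER, with 9 to 23 UMIs per cell. That is 1832 CPM, against 0 CPM in the 26 cells labelled keratinocyte in both annotations and 7315 CPM in AER. Their Sfn level was 1905 CPM, against 2463 CPM in the 26 cells and 160 CPM in AER. Whether such cells are single cells with both sets of transcripts or a keratinocyte and an AER cell captured together was not tested, although the authors removed cells with a high doublet score before deposit. Without the relabelled cells, 89 genes were higher and 14 lower than in dorso-ventral ectoderm, of which 83 and 13 were shared with the full set.

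**Figure D5:**
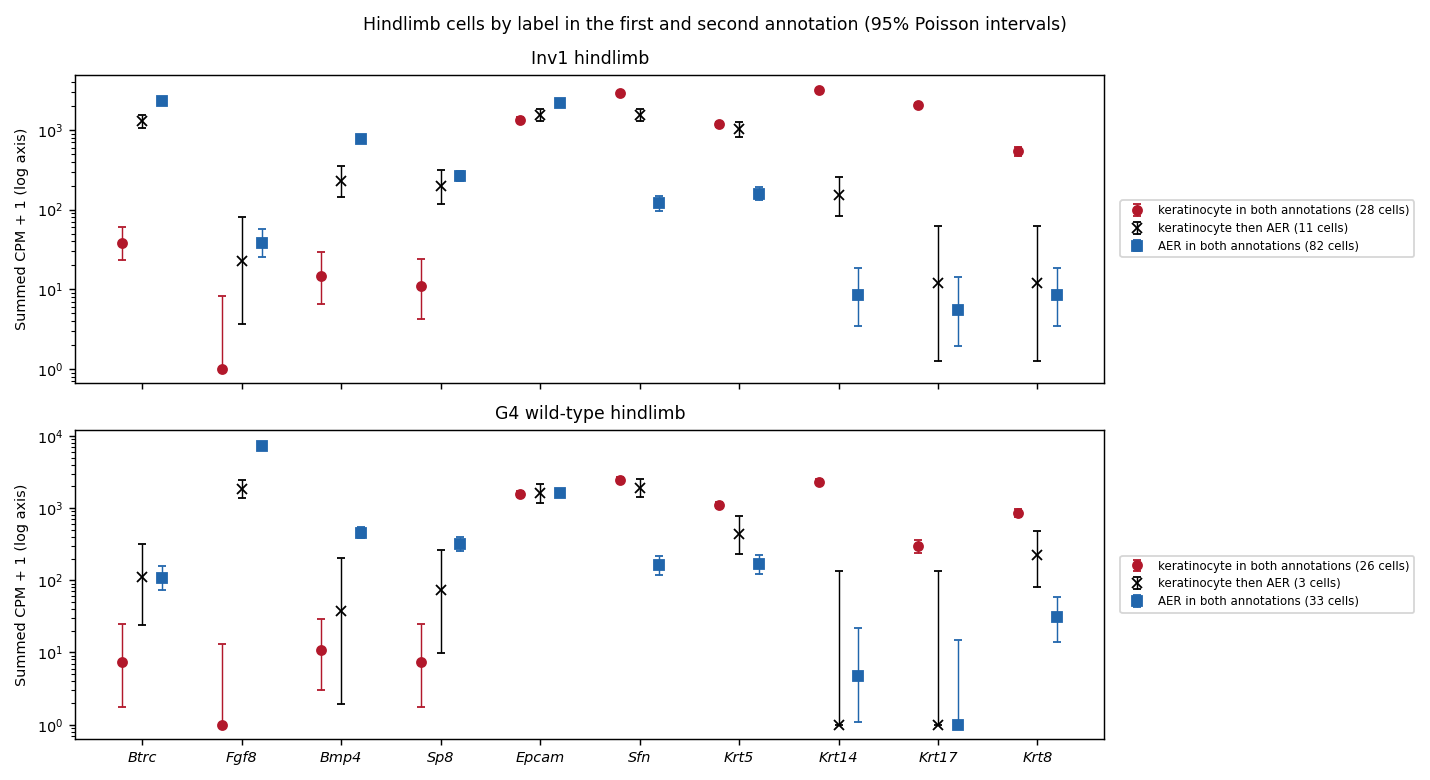
Summed levels (CPM + 1, log axis) of AER and keratinocyte genes in Inv1 hindlimb (top) and G4 wild-type hindlimb (bottom), for cells labelled keratinocyte in both annotations, keratinocyte then AER, and AER in both, with 95% Poisson intervals. In Inv1 hindlimb the 11 relabelled cells have 1274 CPM of Btrc and 1535 CPM of Sfn, with Krt17 and Krt8 at 10.9 CPM each.

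The 6 genes of the rearranged locus were then read within the label, and 1 of them passed 50 CPM against dorso-ventral ectoderm and none was called. Btrc, a substrate receptor of an E3 ubiquitin ligase, had 34.7 CPM in Dup hindlimb (9 UMIs) and 8.51 CPM in C57BL/6 wild-type hindlimb (1 UMI), for a ratio of 4.07 with a 95% exact interval of 0.564 to 178. In Inv1 hindlimb Btrc had 228 CPM (136 UMIs), against 14.9 CPM (5 UMIs) in G4 wild-type hindlimb, for a ratio of 15.3 (6.40 to 47.9). Of the 136 UMIs, 117 were in the 11 relabelled cells. In the cells that kept the label Btrc had 37.6 CPM in Inv1 (19 UMIs) and 6.48 CPM in G4 wild type (2 UMIs), for a ratio of 5.80 (1.40 to 51.4). The 19 UMIs were in 6 of the 28 Inv1 cells, and 14 of them were in a single cell. In Inv1 forelimb Btrc had 56.0 CPM (26 UMIs, of which 17 in a single cell), against 8.16 CPM in G4 wild-type forelimb (2 UMIs), for a ratio of 6.87 (1.72 to 59.7). In the AER label itself Btrc had 2317 CPM in Inv1 hindlimb and 108 CPM in G4 wild-type hindlimb, so the keratinocyte-labelled cells were far below the AER in both.

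Fgf8 had 3.35 CPM in Inv1 hindlimb (2 UMIs) and 149 CPM in G4 wild-type hindlimb (50 UMIs), for a ratio of 0.0225 (0.00265 to 0.0856), and all UMIs of both libraries were in relabelled cells. In the cells that kept the label both libraries had 0 UMIs. In Dup hindlimb Fgf8 had 1 UMI, against 11 UMIs in C57BL/6 wild-type hindlimb that came from a single cell. Lbx1, a homeobox gene of migrating muscle precursors, had 12 UMIs in Inv1 hindlimb and 0 in G4 wild-type hindlimb. The exact lower bound for this ratio was 1.56. Of the 12 UMIs, 1 was in cells that kept the label, and among those cells the lower bound was 0.0157, so no difference was detectable. Dpcd had 127 CPM in Dup hindlimb (33 UMIs) and 59.6 CPM in C57BL/6 wild-type hindlimb (7 UMIs), for a ratio of 2.13 (0.928 to 5.71). Its annotated end overlaps that of Fbxw4 on the other strand. Fbxw4 had 0 UMIs in Inv1 forelimb and 6 UMIs in G4 wild-type forelimb, with an upper bound of 0.449 for the ratio, and 4 and 5 UMIs in the hindlimb pair. In hindlimb cells that kept the label Fbxw4 had 0 UMIs in Inv1 and 5 UMIs in G4 wild type, with an upper bound of 0.667. Poll had 1 to 6 UMIs in each library, too few to show a difference.

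Across all genes, Inv1 and G4 wild-type hindlimb were the 1 pair in which both libraries held 20 or more keratinocyte-labelled cells. Among 1475 genes with a mean of 100 CPM or more in the pair, 3 (0.203%) were at least 2-fold higher and 2 (0.136%) at least 2-fold lower in Inv1 on the log2 scale with the pseudocount of 50 CPM, and the median log2 ratio was -0.06. The 3 higher genes were H19, Krt17 and Btrc. H19, an imprinted long non-coding RNA, had 1045 CPM in Inv1 hindlimb and 59.6 CPM in G4 wild-type hindlimb (log2 ratio 3.32). H19 also differed in the forelimb, with 1969 CPM in Inv1 and 351 CPM in G4 wild type, and in mesenchyme of the hindlimb, with 411 CPM in Inv1 and 111 CPM in G4 wild type, so the difference was not confined to the keratinocyte label. Krt17 had 1751 CPM in Inv1 hindlimb and 271 CPM in G4 wild-type hindlimb (log2 ratio 2.49), and a few cells held most of it in both libraries. The log2 ratio of Btrc was 2.10 with all cells and 0.63 without the relabelled cells. Without those cells 2 genes were higher (H19 and Krt17) and 3 were lower, the third being Igfbp5 with 27.7 CPM in Inv1 and 107 CPM in G4 wild type (log2 ratio -1.01, against -0.17 with all cells).

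Cxcl14 and a gene given only as ENSMUSG00000096768 were the 2 lower ones. Cxcl14 had 48.6 CPM in Inv1 hindlimb and 289 CPM in G4 wild-type hindlimb (log2 ratio -1.78, and -2.37 without the relabelled cells), whereas the forelimb pair had 69.0 and 53.01 CPM in Inv1 and G4 wild type. ENSMUSG00000096768 had 85.4 CPM in Inv1 hindlimb and 286 CPM in G4 wild-type hindlimb (log2 ratio -1.31), and in mesenchyme 145 CPM in Inv1 and 359 CPM in G4 wild type. The remaining genes named by rule were within 2-fold on the log2 scale with the pseudocount, with Egr1 at 0.87, Tmsb4x at 0.74, Id3 at -0.995, Pttg1 at -0.91 and S100a16 at -0.86. Without the pseudocount the ratios of Inv1 to G4 wild type were 2.53 for Egr1, 1.68 for Tmsb4x, 0.446 for Id3, 0.398 for Pttg1 and 0.454 for S100a16. In forelimb Id3 had 418 CPM in Inv1 and 228 CPM in G4 wild type, and S100a16 had 194 and 85.6 CPM, opposite to hindlimb. Egr1, Tmsb4x and Pttg1 went the same way in both limbs. With 1 library on each side, embryo, library and genotype cannot be told apart for any of these genes.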

How the data were processed

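Single cells of E11.5 limb buds were captured by the study with 10x Chromium 3′ chemistry version 2 after 10 min in trypsin. Deposited values are unnormalised counts of UMIs for each gene in each cell. Alignment and counting by the authors used Cell Ranger (version 3) with a custom mm9 reference, and mm10 is named too in the submitters' processing notes. The authors removed cells with a Scrublet doublet score above 0.2, normalised and integrated the libraries in Seurat and labelled Louvain clusters, and these labels were used as deposited. The stated minimum of 2000 genes was applied here, since the files held cells down to 1492. Counts of the 15668 genes found in both matrices were summed per library and label and scaled to CPM. Of 16687 genes in the larger matrix 1468 had no symbol. The hindlimb-only matrix and 17 metadata columns were not used.

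Comparisons between labels were made within libraries with at least 5 cells of both, without a test, because the labels come from the same counts and each group had 1 library. Intervals are 95% exact Poisson, Clopper-Pearson or conditional binomial intervals and cover counting error only. Named genes were the markers, list members, locus genes, the 20 highest and 10 lowest median log2 ratios with the same sign in all libraries (without haemoglobin, Xist and Y-linked genes), and 5 each way in the hindlimb pair. The members, the 26 gene lists (301 entries, 29 without a row) and the motifs were chosen with earlier results of these data known. Other genes given with values were named after these were seen. Some genes that the rule names are not reported here. The scripts were tested on simulated data. Alternatives tried were the gene minimum, pseudocount, CPM filter, thinning, a mean over cells, a marker gate, the second annotation and leaving out each library. Python 3.11, NumPy 2.4.6, SciPy 1.17.1, pandas 2.3.3 and Matplotlib 3.10.9 were used.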

Additional observations from a re-analysis of the deposited data

How the results depend on the processing

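The 20 highest and 10 lowest genes kept the sign of their log2 ratio with the smaller pseudocount and with each library left out. These were the alternatives for which single genes were recomputed, and 157 of these ratios stayed within the spread over libraries while 23 moved further. All 23 moved with the smaller pseudocount, such as Krt8 at 5.01 in place of 3.43, and none with a library left out. Of 20 recomputed shares 19 stayed within their interval, and with more than 3000 detected genes the share in Dup hindlimb was 1.24%. With a pseudocount of 10 CPM in place of 50, 29 genes were lower than in dorso-ventral ectoderm in place of 14, and list medians of log2 ratios were 3.00 for simple keratins, 3.47 for periderm regulators, -1.12 for basal genes, 2.78 for tight junctions, 2.19 for desmosomes, 1.67 for epithelial identity and 3.06 for Notch. The number of higher genes than in dorso-ventral ectoderm ran from 68 with cells thinned to 4000 UMIs (65 shared with the 84) to 119 with the smaller pseudocount (all 84 shared). Leaving out each library in turn gave 84 to 98 higher and 15 to 20 lower genes. The Btrc ratio of Inv1 to G4 wild-type hindlimb was 5.80 without the relabelled cells, and that of Fgf8 was 0 among cells with 3 or more periderm markers. Both alternatives without relabelled or mesenchyme-marked cells were chosen after seeing the data. No paired analysis was possible because each group had 1 library, so nothing pairs replicates across groups. The locus genes are limited by low counts, since several ratios rest on 1 to 6 UMIs in the wild type.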

Other observations

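Genes of limb position were read in the keratinocyte-labelled cells as values outside the comparisons above, and the choice was made after the data were seen. Hoxa9, a posterior Hox gene, had 34.7 CPM in Dup hindlimb, 119 CPM in C57BL/6 wild-type hindlimb, 33.5 CPM in Inv1 hindlimb and 41.7 CPM in G4 wild-type hindlimb under the keratinocyte label. In dorso-ventral ectoderm of the 4 hindlimb libraries Hoxa9 had 156 to 270 CPM. In forelimb Hoxa9 had 0 CPM in Inv1 and 16.3 CPM in G4 wild type under the keratinocyte label, against 8.78 CPM in Inv1 and 11.3 CPM in G4 wild type in dorso-ventral ectoderm. Penk, the precursor of enkephalin peptides, belonged to no list and had 154 to 331 CPM in the 5 libraries compared, against 2.95 to 15.0 CPM in dorso-ventral ectoderm (log2 ratio 2.23). Penk UMIs were in 74.5% of keratinocyte-labelled cells (54.2% thinned), against 5.32% of dorso-ventral ectoderm cells (1.66% thinned) and 1.46% of mesenchymal cells (0.825% thinned), with median depths of 10228, 10003 and 8364 UMIs in that order. H2-D1, a classical major histocompatibility gene, had 177 to 204 CPM under the keratinocyte label, against 3.51 to 9.78 CPM in dorso-ventral ectoderm.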
